A study of Mus musculus with 18 samples.

Results

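Rab GTPases are small membrane switches that mark the compartments of the vesicle system. In the GTP-bound form a Rab sits in a particular membrane and recruits effectors (motors, tethers and fusion factors), and in the GDP-bound form it is carried through the cytosol by a GDP dissociation inhibitor. Exchange factors load GTP and GTPase-activating proteins end the active state. In B cells, Rabs of the endosomal series handle internalised antigen, Rabs of the ER and Golgi carry newly made receptors outward, and endosomal Toll-like receptors such as TLR7 and TLR9 signal from compartments of this kind.

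The Rab genes were taken by name alone: every symbol made of Rab, a number and at most 1 letter, which gave 57 of 23420 genes. They were described by RNA sequencing in splenic B cells purified with beads from MRL/lpr mice, which carry the lpr mutation of Fas and develop a lupus-like disease. Each of the 6 groups had 3 libraries. The labels give an age of 5 to 7 weeks for both sexes, whereas the methods text gives 5 weeks for the females. The first 4 groups came from female Tlr7-/- mice. Cells with 1 functional Tlr9 allele (Tlr9+/- Tlr7-/-) are here called Tlr9het. They were set beside cells whose Tlr9 locus encodes a TLR9 with the TIR signalling domain of TLR7 (Tlr997 Tlr7-/-, here Tlr997). Each genotype was cultured for 4 h either without agonist or with CpG, an agonist of TLR9, at 10 µg/ml. The other 2 groups came from male Tlr9-/- mice whose Tlr7 locus encodes a TLR7 with the TIR domain of TLR9 (Tlr779 Tlr9-/-, here Tlr779). Their cells were cultured for 4 h either without agonist or with CL097, an agonist of TLR7, at 5 µg/ml. Both chimeric alleles were made in the endogenous loci. Nothing in the labels ties a replicate number to a mouse. An offset per replicate number appears to have been removed from the deposited values, so the p-values measure the spread that is left. The main fits do not account for this removal, and their SEs and p-values may be too small.

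Values were log2 CPM, and no counts were used, so the depth of each library is unknown. Summed CPM lay between 991992 and 1004412. Within groups the libraries correlated at 0.976 to 0.989 (Pearson's r over 11676 genes, which are not independent replicates), except for replicate 3 of unstimulated Tlr997, which correlated at 0.944 and 0.955 with its group. Results that rest on this library are given with and without it. The titles give the control genotype as Tlr9+/-, while the treatment protocol writes Tlr9-/- Tlr7-/-, and the titles were followed. Tlr9 was at 7.37 ± 0.10 log2 CPM in unstimulated Tlr9het, 7.04 ± 0.02 in Tlr997 and 7.24 ± 0.08 in the libraries labelled Tlr9-/- (SD, n = 3 each), so its level is no check of that label. Tlr7 was at 3.15 ± 0.42 log2 CPM in unstimulated Tlr9het and 4.96 ± 0.20 in Tlr997, both labelled Tlr7-/-, and at 6.88 ± 0.40 in Tlr779 (SD, n = 3 each). The Tlr997 allele holds the Tlr7 TIR sequence and the Tlr779 allele the Tlr9 TIR sequence. The part of their reads in these levels was not tested, so the levels are no check of the labels. Markers of B cells, 5 genes, summed to 5176.8 to 6895.9 CPM without agonist and to 1615.8 to 3107.2 CPM with it. Of these, Cd79a (-3.27, -3.10 and -1.54) and Cd79b (-3.73, -2.59 and -2.01) fell in each response (log2 fold changes in Tlr9het, Tlr997 and Tlr779), Ms4a1 fell in Tlr9het and Tlr779, and Pax5 was at 0.54, 0.47 and 0.02 and was called higher in Tlr9het. Macrophage markers, 6 genes, summed to 190.7 to 255.3 CPM without and 130.8 to 145.1 CPM with CpG in Tlr9het, which did not overlap. They summed to 120.3 to 301.3 and 86.7 to 173.9 CPM in Tlr997 and to 170.4 to 441.6 and 82.4 to 182.4 CPM in Tlr779, which overlapped. T cell markers, 5 genes, summed to 3.6 to 9.4 CPM without and 9.6 to 21.2 CPM with CpG in Tlr9het, and to 2.3 to 7.8 and 7.9 to 16.6 CPM in Tlr997, without overlap, and Cd8a was called higher in both (log2 fold changes of 2.18 and 2.56). In Tlr779 they summed to 1.8 to 5.9 and 1.9 to 7.1 CPM. The part of these markers in the Rab values was not tested. Fewer cells of a type and less RNA per cell cannot be told apart in such samples.

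Of the 57 Rab genes, 41 passed the filter (over 0 log2 CPM in at least 3 libraries) in the Tlr7-/- arm, and 40 passed it in the Tlr779 arm, where Rab44 did not. The 16 that passed in neither had means over all libraries between -5.05 and -0.95 log2 CPM. They were Rab3b, Rab3c, Rab4a, Rab6b, Rab9b, Rab13, Rab15, Rab17, Rab25, Rab26, Rab27b, Rab33a, Rab36, Rab38, Rab40b and Rab42, several of them known from epithelium, neurons or pigment cells. Rab27b, which acts with Rab27a in granule release, was at -2.24 ± 0.93 log2 CPM in unstimulated Tlr9het, and Rab38, a melanosome Rab, at -1.69 ± 0.88 (SD, n = 3 each). To order the Rabs by level, values were taken per kilobase of exon (log2 CPM per kb, exon lengths from GENCODE). Rab5c of the early endosome led in unstimulated Tlr9het at 6.67 ± 0.09, followed by Rab10, an exocytic Rab, at 6.45 ± 0.02, the late endosomal Rab7 at 6.15 ± 0.03 and Rab8a, which acts between Golgi and plasma membrane, at 5.88 ± 0.03 (SD, n = 3 each). The means of these 4 lay further apart than their SDs, whereas those of Rab5b at 5.59 ± 0.05 and Rab4b at 5.58 ± 0.13, neighbours in the order, did not. Rab5c, Rab10 and Rab7 held ranks 1, 2 and 3 in each unstimulated group. Rab8b, at rank 10 in unstimulated Tlr9het and Tlr997 and at rank 12 in Tlr779, stood at rank 3 with CpG in both genotypes and at rank 4 with CL097.

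To learn how TLR9 stimulation changed these genes, CpG libraries were compared with unstimulated ones in each genotype by limma, which was fitted over all 11494 genes tested. Calls required a log2 fold change beyond 0.5 in either direction together with a Benjamini-Hochberg adjusted p below 0.05. In Tlr9het, 6 Rabs rose, 17 fell and 18 were not called. Over all genes, 29.7% were called higher and 28.2% lower, against 14.6% and 41.5% of the 41 Rabs. The median Rab log2 fold change was -0.34, against 0.04 over all genes. In Tlr997, 6 Rabs rose and 18 fell (14.6% and 43.9%), against 29.6% and 26% of all genes, and the medians were -0.45 and 0.07. With CL097 in Tlr779, 4 rose and 14 fell (10% and 35% of 40 Rabs), against 22.7% and 23.6% of 11082 genes, and the medians were -0.33 and -0.02. Libraries with agonist did not overlap those without for 80.1%, 71.2% and 67.8% of all genes tested in Tlr9het, Tlr997 and Tlr779. Among the Rabs this held for 35 and 33 of 41 and for 29 of 40. A lack of overlap is therefore common in these data. These shares are descriptions, and no test compared the Rabs with other genes.

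A set of 12 Rabs fell in all 3 responses, namely Rab1b, Rab3a, Rab3d, Rab5b, Rab19, Rab21, Rab24, Rab27a, Rab30, Rab31, Rab35 and Rab39. Another 4, Rab8b, Rab20, Rab34 and Rab39b, rose in all 3. Among the 40 Rabs tested in each response these were 30% and 10%, against 19% of 11012 genes called lower and 19% called higher in all 3. Rab34 passed the filter through the libraries with agonist, and Rab3a in the Tlr7-/- arm through the unstimulated ones, where each is high. Of the 41, 27 were called in at least 1 response and 14 in none. Among the 40, 65% were called in at least 1 and 0 in opposite directions, against 68.8% and 0.236% of all genes. The log2 fold changes in Tlr9het and Tlr997 correlated across the 41 Rabs at 0.938 (Pearson's r), against 0.931 over all 11494 genes. Those of CpG in Tlr9het and CL097 in Tlr779 correlated at 0.933 over 40 Rabs and at 0.873 over 11012 genes. For CpG in Tlr997 and CL097 in Tlr779 the Rab value was the lower one, at 0.824 against 0.856 over the same genes. Genes are not independent replicates, and these values are given as descriptions. The heat map of library values shows the responding Rabs as bands that change at each agonist.

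**Figure D1:**
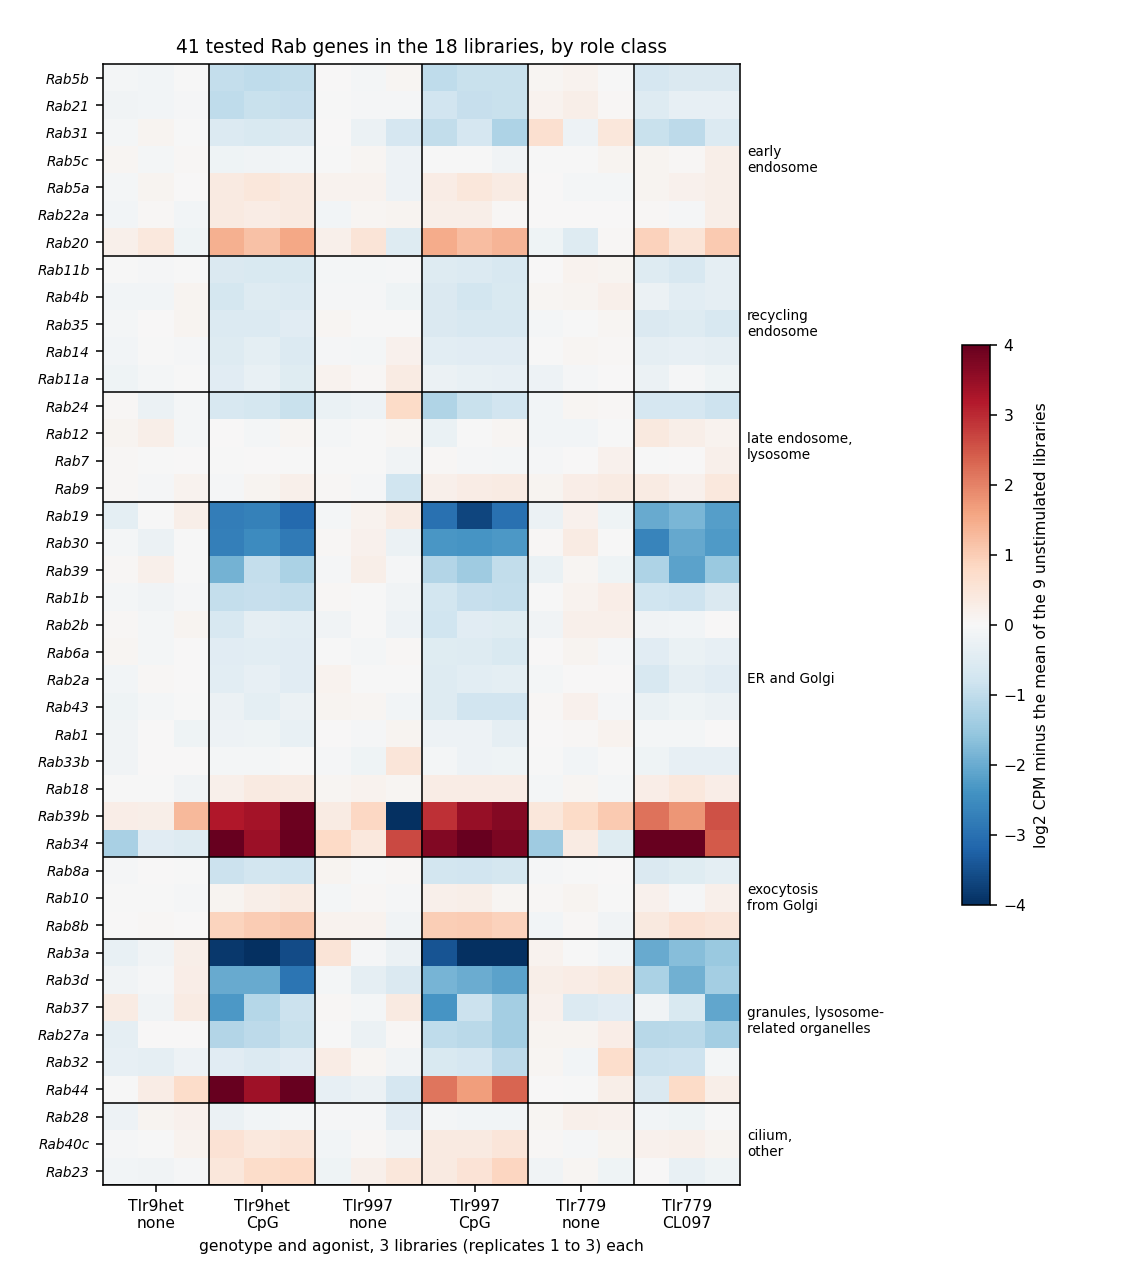
Heat map of the 41 tested Rab genes (rows, grouped by role class and ordered by the CpG response in Tlr9het) in the 18 libraries (columns, 3 per group). Colour is log2 CPM minus the gene's mean over the 9 unstimulated libraries, with the scale ending at 4 in either direction. Rab3a, Rab19 and Rab30 turn blue and Rab34 and Rab39b red with every agonist, Rab44 turns red with CpG alone, and replicate 3 of unstimulated Tlr997 stands apart in Rab39b and Rab34.

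Close relatives in the early endosome differed. Rab5 proteins drive fusion of incoming vesicles with the early endosome, a role that the isoforms share. Rab5b (chromosome 10, 128677175 to 128696264, GRCm38) was at 7.25, 7.22 and 7.32 log2 CPM in unstimulated Tlr9het and at 6.37, 6.30 and 6.33 with CpG. No stimulated library reached an unstimulated one in any genotype. Rab5b fell by 0.93 ± 0.06 on the log2 scale in Tlr9het (limma SE, adjusted p = 8.07e-09), with values of -0.92 ± 0.06 in Tlr997 and -0.67 ± 0.07 in Tlr779. Rab5a, in contrast, was at 6.0 ± 0.08 without and 6.37 ± 0.05 log2 CPM with CpG in Tlr9het (SD, n = 3 each). Its log2 fold change of 0.37 ± 0.09 (SE) stayed under the fold threshold, as did 0.32 in Tlr997 and 0.21 in Tlr779. Rab5c, the isoform with the highest level, was at -0.16, -0.02 and 0.11 on the same scale. Per kilobase, Rab5b minus Rab5a was 0.83 ± 0.11 log2 units in unstimulated Tlr9het and -0.47 ± 0.09 with CpG (SD, n = 3 libraries each). In Tlr997 it went from 0.88 ± 0.26 to -0.36 ± 0.07, so on this scale the order turned in both genotypes. In Tlr779 the difference went from 1.02 ± 0.09 to 0.14 ± 0.03 and kept its sign. The order depends on the exon lengths used. In log2 CPM, Rab5b at 6.37, 6.30 and 6.33 stood beside Rab5a at 6.37 ± 0.05 with CpG in Tlr9het.

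Of the 7 early endosomal Rabs tested, Rab20 rose and Rab5b, Rab21 and Rab31 fell in each response. Over all genes, 29.7%, 29.6% and 22.7% were called higher and 28.2%, 26% and 23.6% lower, and no test compared the class with them. Rab20, which acts in the maturation of phagosomes, was at 2.11, 2.32 and 1.74 log2 CPM in unstimulated Tlr9het and at 3.32, 3.09 and 3.47 with CpG. The groups did not overlap in any genotype, and the log2 fold changes were 1.23 ± 0.25, 1.31 ± 0.25 and 1.04 ± 0.23 (SE, adjusted p = 0.000478, 0.000322 and 0.00503 by limma). An uncharacterised transcript on the opposite strand, E230013L22Rik, covers 25.6% of its exon bases. Rab21, which moves integrins through early endosomes, fell by 0.85, 0.82 and 0.54 on the log2 scale. Rab31, which carries cargo between Golgi and endosomes, had log2 fold changes of -0.58, -0.65 and -1.14. The macrophage marker sums given above were lower with agonist, without overlap in Tlr9het and with overlap in Tlr997 and Tlr779. Of these 6 genes Lyz2 was called lower in each response (-0.97, -1.08 and -1.65) and Csf1r in Tlr779 (-1.05). The part of such cells in the Rab31 values was not tested. Rab22a, which acts in endosomal sorting, was not called, at 0.40, 0.13 and 0.05.

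The recycling endosome returns receptors to the surface, and its 5 tested Rabs had small shifts, all downward. Rab35 fell in every response, by 0.52, 0.63 and 0.56 on the log2 scale. Rab4b, a rapid recycling Rab, had values of -0.55, -0.54 and -0.47 and Rab11b -0.57, -0.49 and -0.60, of which the Tlr779 value of the former and the Tlr997 value of the latter stayed inside the fold threshold of 0.5. Rab11a, the main Rab of slow recycling, was at -0.34, -0.45 and -0.06 and was not called. Rab14, which links early endosomes and Golgi, was not called either, at -0.43, -0.45 and -0.38. The exons of Rab4b overlap the model Gm21983 on the same strand over 85.2% of their length, so its value is uncertain.

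Rab7, the main Rab of the late endosome, had log2 fold changes near 0. This Rab, which guides late endosomes to the lysosome, was at 7.56, 7.49 and 7.54 log2 CPM in unstimulated Tlr9het and at 7.51, 7.53 and 7.51 with CpG, and the groups overlapped in every genotype. Its log2 fold change was -0.01 ± 0.05 in Tlr9het, 0.04 ± 0.05 in Tlr997 and 0.03 ± 0.09 in Tlr779 (SE). Rab9, which returns cargo from late endosomes to the Golgi, was called in Tlr997, at 0.55 ± 0.17 (SE, adjusted p = 0.0119 by limma), and not in the other responses, at 0.05 and 0.08. The difference between the genotypes, 0.49 ± 0.24, did not pass (adjusted p = 0.345 by limma). That call rested on replicate 3 of unstimulated Tlr997, which stood at 3.78 log2 CPM beside 4.60 and 4.52, and without it the value was 0.28 ± 0.10, under the fold threshold. Rab24, linked to autophagy, fell by 0.65, 1.05 and 0.73 on the log2 scale. Without that library its value in Tlr997 was -0.72 ± 0.15. Opposite-strand Prelid1 covers 66.4% of the exon bases of Rab24, and whether counting used the strand is not given in the sources used here. Rab12, a Rab of recycling to lysosomes, was not called, at -0.08, -0.05 and 0.33.

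**Figure D2:**
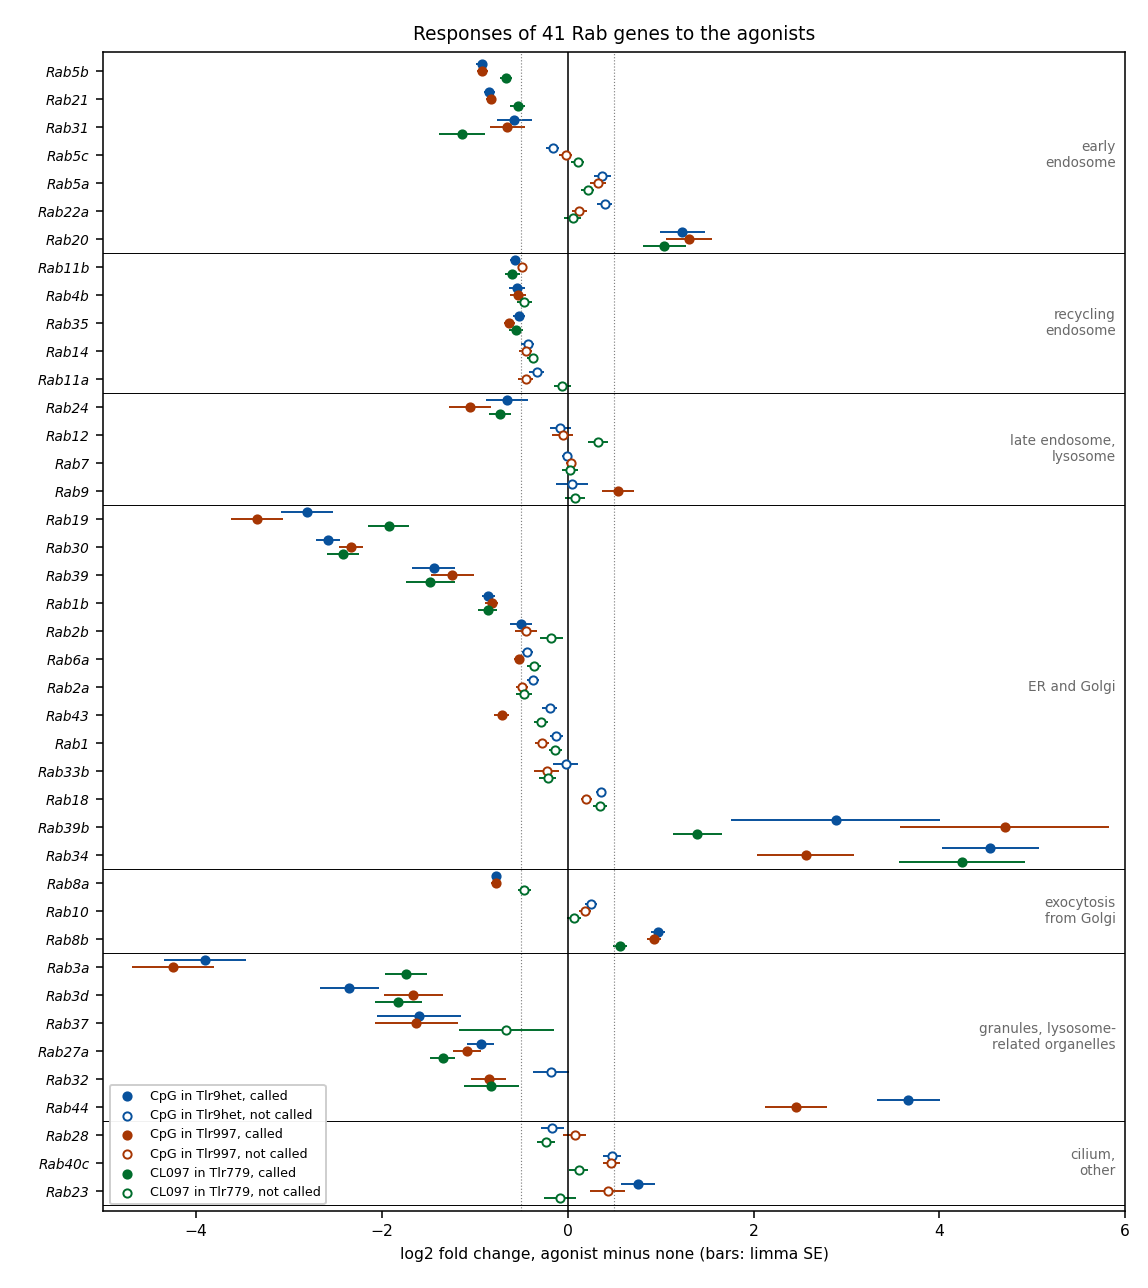
Log2 fold change (agonist minus none) of the 41 tested Rab genes in 3 responses (40 for CL097), grouped by role class. Points are limma estimates, bars their SE, filled points are called genes and dotted lines mark the fold threshold of 0.5. ER, Golgi and granule Rabs hold the widest changes in both directions, from -3.91 for Rab3a to 4.55 for Rab34 with CpG in Tlr9het, whereas Rab7 lies at -0.01.

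The ER and Golgi class, with 13 tested members, held large changes in both directions. Rab30, a Golgi Rab, was at 5.20, 5.05 and 5.28 log2 CPM in unstimulated Tlr9het and at 2.55, 2.78 and 2.47 with CpG. In Tlr997 it went from 5.34, 5.45 and 5.04 to 2.94, 2.91 and 2.97, and in Tlr779 from 5.33, 5.60 and 5.26 to 2.65, 3.23 and 3.03. The highest of the 9 stimulated libraries, 3.23, was far below the lowest unstimulated one, 5.04. The log2 fold changes were -2.58 ± 0.13, -2.34 ± 0.13 and -2.42 ± 0.17 (SE, adjusted p = 6.02e-10, 2e-09 and 1.43e-05 by limma), and no other Rab had a smaller adjusted p in Tlr9het. Rab19, a less studied Golgi Rab, fell in Tlr9het from 2.86 ± 0.33 log2 CPM to 0.05 ± 0.23 (SD, n = 3 each). Its log2 fold changes were -2.81, -3.35 and -1.93, and with 1 CPM added -2.02, -2.34 and -1.50. Rab1b, which with Rab1 (Rab1a in current annotation) carries cargo from ER to Golgi, fell by 0.85, 0.82 and 0.86 on the log2 scale, while Rab1 was at -0.12, -0.28 and -0.13 and was not called. Rab6a, the main Rab of retrograde Golgi traffic, fell in Tlr997 (-0.53) and was not called in Tlr9het (-0.44) or Tlr779 (-0.37). Rab2b, a Rab of ER to Golgi traffic whose exons overlap Tox4 on the opposite strand over 70.9% of their bases, fell in Tlr9het (-0.50) and was at -0.45 and -0.18 in the others. Rab2a (-0.37, -0.49 and -0.47), Rab18 of lipid droplets and ER (0.36, 0.20 and 0.35) and Rab33b, which binds the autophagy machinery (-0.02, -0.23 and -0.22), were not called.

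Rab39 and Rab39b moved in opposite directions. Rab39 (chromosome 9, 53684110 to 53706232), a Rab of endosomes and phagosomes as well as Golgi, was at 3.10, 3.26 and 3.03 log2 CPM in unstimulated Tlr9het and at 1.16, 2.11 and 1.80 with CpG. Its groups did not overlap, and it fell by 1.44 ± 0.23, 1.24 ± 0.23 and 1.48 ± 0.27 on the log2 scale in Tlr9het, Tlr997 and Tlr779 (SE). Rab39b (chromosome X, 75572046 to 75578231), best known from neurons, was at 0.93, 0.91 and 1.97 without and 3.87, 4.0 and 4.60 log2 CPM with CpG, and rose by 2.88 ± 1.12 (SE, adjusted p = 0.0336 by limma). The fit shares 1 spread over 4 groups, and in unstimulated Tlr997 replicates 1 and 2 stood at 0.99 and 1.52 and replicate 3 at -4.52. Without that library the Tlr9het value was 2.88 ± 0.31 (adjusted p = 2.38e-06) and the Tlr997 value went from 4.71 ± 1.12 to 2.78 ± 0.35, and with 1 CPM added and every library kept it was 2.93. The Tlr9het call was lost under 7 of 20 alternatives, with adjusted p between 2.38e-06 and 0.16. In Tlr779, Rab39b rose by 1.40 ± 0.27 (SE, adjusted p = 0.00222). That call was lost under 1 of 14 alternatives, the fit of all 18 libraries in 1 model (adjusted p = 0.237 by limma). Per kilobase, Rab39b minus Rab39 went from -2.06 ± 0.70 to 2.27 ± 0.50 log2 units in Tlr9het and from -1.68 ± 0.31 to 1.20 ± 0.34 in Tlr779 (SD, n = 3 each). The transcript Gm15063 covers 18.6% of the exon bases of Rab39b on the opposite strand.

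Rab34, which acts at the Golgi and in lysosome positioning, had the largest log2 fold change of the Rabs in Tlr9het. It was at -3.05, -2.21 and -2.28 log2 CPM without and at 2.25, 1.66 and 2.20 with CpG, a change of 4.55 ± 0.52 (SE, adjusted p = 3.16e-06 by limma). Values this low depend on the offset in the deposited values, whose most frequent low value is -5.05, and with 1 CPM added the change was 2.11. In Tlr779 it was 4.24 ± 0.67, with library values of -3.19, -1.44 and -2.23 without and 2.27, 2.90 and 0.71 with CL097, and 2.05 with 1 CPM added. In Tlr997 it was 2.56 ± 0.52, where replicate 3 without agonist stood at 0.90 beside -0.94 and -1.33, 3.24 ± 0.38 without that library and 1.54 with 1 CPM added. No group with agonist overlapped its unstimulated group. Rab34 passed the filter through the libraries with agonist, where it is high, so a difference from the unstimulated ones was built into its being tested.

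The 300 bases around the start sites (250 before to 50 after, RefSeq, GRCm38.p6, written on the gene's strand) are shown for 5 Rabs. These were chosen after their values were seen: the Rab39 and Rab8 pairs, whose members differed in direction, and Rab34, for its large change. In the whole set of 32851 promoter entries, 7.81% held an AP-1 motif (TGANTCA on either strand) and 8.46% the kappaB consensus. Of 59 entries for 47 Rabs, 3 held AP-1 (5.08%), those of Rab15, Rab34 and Rab39b, and 3 held the kappaB consensus (5.08%), those of Rab11a, Rab15 and Rab28. An E-box (CACGTG) was found in 6 Rab entries (10.17%, against 7.15% of all), a CRE (TGACGTCA) in 2 (3.39% against 1.79%) and an ISRE core (GAAANNGAAA) in 1 (1.69% against 3.44%). The Rab5a window, not printed, holds 2 E-boxes and 1 CRE, and that of Rab5b holds none of these motifs. Capitals mark a match to any of these 5 motifs, and a match is a description of the letters only.
Rab39, chr9:53706183-53706482, minus strand: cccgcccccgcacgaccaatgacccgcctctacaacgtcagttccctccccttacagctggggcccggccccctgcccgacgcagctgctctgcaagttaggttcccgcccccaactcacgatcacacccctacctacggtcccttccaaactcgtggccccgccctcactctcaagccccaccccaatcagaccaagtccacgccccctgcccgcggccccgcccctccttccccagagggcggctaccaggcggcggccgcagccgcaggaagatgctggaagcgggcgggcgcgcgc
Rab39b, chrX:75578182-75578481, minus strand: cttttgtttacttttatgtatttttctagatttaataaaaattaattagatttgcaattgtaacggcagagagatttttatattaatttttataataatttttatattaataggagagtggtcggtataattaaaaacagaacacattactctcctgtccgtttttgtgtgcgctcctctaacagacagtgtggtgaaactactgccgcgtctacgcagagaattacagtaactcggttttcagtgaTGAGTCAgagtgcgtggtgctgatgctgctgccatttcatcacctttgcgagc
Rab34, chr11:78188177-78188476, plus strand, the first of 2 entries: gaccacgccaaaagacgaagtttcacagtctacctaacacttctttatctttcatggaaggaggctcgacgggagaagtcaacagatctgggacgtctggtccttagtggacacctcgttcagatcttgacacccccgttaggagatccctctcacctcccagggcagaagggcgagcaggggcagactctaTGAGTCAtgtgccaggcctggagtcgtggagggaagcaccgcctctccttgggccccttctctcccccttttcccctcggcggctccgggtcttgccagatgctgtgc
Rab8a, chr8:72160950-72161249, plus strand: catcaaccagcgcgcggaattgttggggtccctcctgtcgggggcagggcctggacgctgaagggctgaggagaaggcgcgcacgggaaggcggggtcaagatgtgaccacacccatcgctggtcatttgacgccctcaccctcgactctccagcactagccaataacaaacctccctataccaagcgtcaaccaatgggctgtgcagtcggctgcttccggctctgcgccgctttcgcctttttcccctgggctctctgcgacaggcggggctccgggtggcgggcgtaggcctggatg
Rab8b, chr9:66919656-66919955, minus strand: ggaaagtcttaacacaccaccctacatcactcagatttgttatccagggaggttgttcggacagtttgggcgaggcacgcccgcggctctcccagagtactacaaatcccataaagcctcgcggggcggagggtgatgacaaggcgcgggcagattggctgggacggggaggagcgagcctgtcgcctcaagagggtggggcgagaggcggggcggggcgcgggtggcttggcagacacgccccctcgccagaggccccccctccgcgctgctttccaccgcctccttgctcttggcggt
The AP-1 match starts at base 248 in Rab39b and at base 193 in Rab34, and the second Rab34 entry holds none of the 5 motifs. G and C make up 70.7% of the Rab39 window and 35.7% of the Rab39b window, against a median of 61.3% over the Rab entries and 52.7% over all entries.

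Rab8a and Rab8b, which move vesicles from the Golgi and recycling compartments to the plasma membrane, exchanged order. Rab8a was at 8.03, 8.10 and 8.06 log2 CPM in unstimulated Tlr9het and at 7.24, 7.37 and 7.29 with CpG. Rab8b was at 7.63, 7.68 and 7.65 without and at 8.53, 8.63 and 8.71 with CpG. In every genotype the stimulated libraries of Rab8a lay below, and those of Rab8b above, all of the unstimulated ones. Rab8a fell by 0.77 ± 0.05 in Tlr9het and 0.78 ± 0.05 in Tlr997 on the log2 scale (SE, adjusted p = 1.15e-08 and 1.23e-08 by limma). Rab8b rose by 0.97 ± 0.08 and 0.93 ± 0.08 (adjusted p = 6.11e-08 and 1.09e-07). Per kilobase, Rab8b minus Rab8a went from -0.47 ± 0.01 to 1.27 ± 0.09 log2 units in Tlr9het, from -0.52 ± 0.18 to 1.18 ± 0.08 in Tlr997 and from -0.59 ± 0.10 to 0.44 ± 0.09 in Tlr779 (SD, n = 3 each). With CL097 Rab8b rose by 0.56 ± 0.08, while the Rab8a value of -0.47 ± 0.07 stayed inside the fold threshold (adjusted p = 0.000541). Rab10, the third tested exocytic Rab, was at 0.25, 0.18 and 0.07 and was not called.

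**Figure D3:**
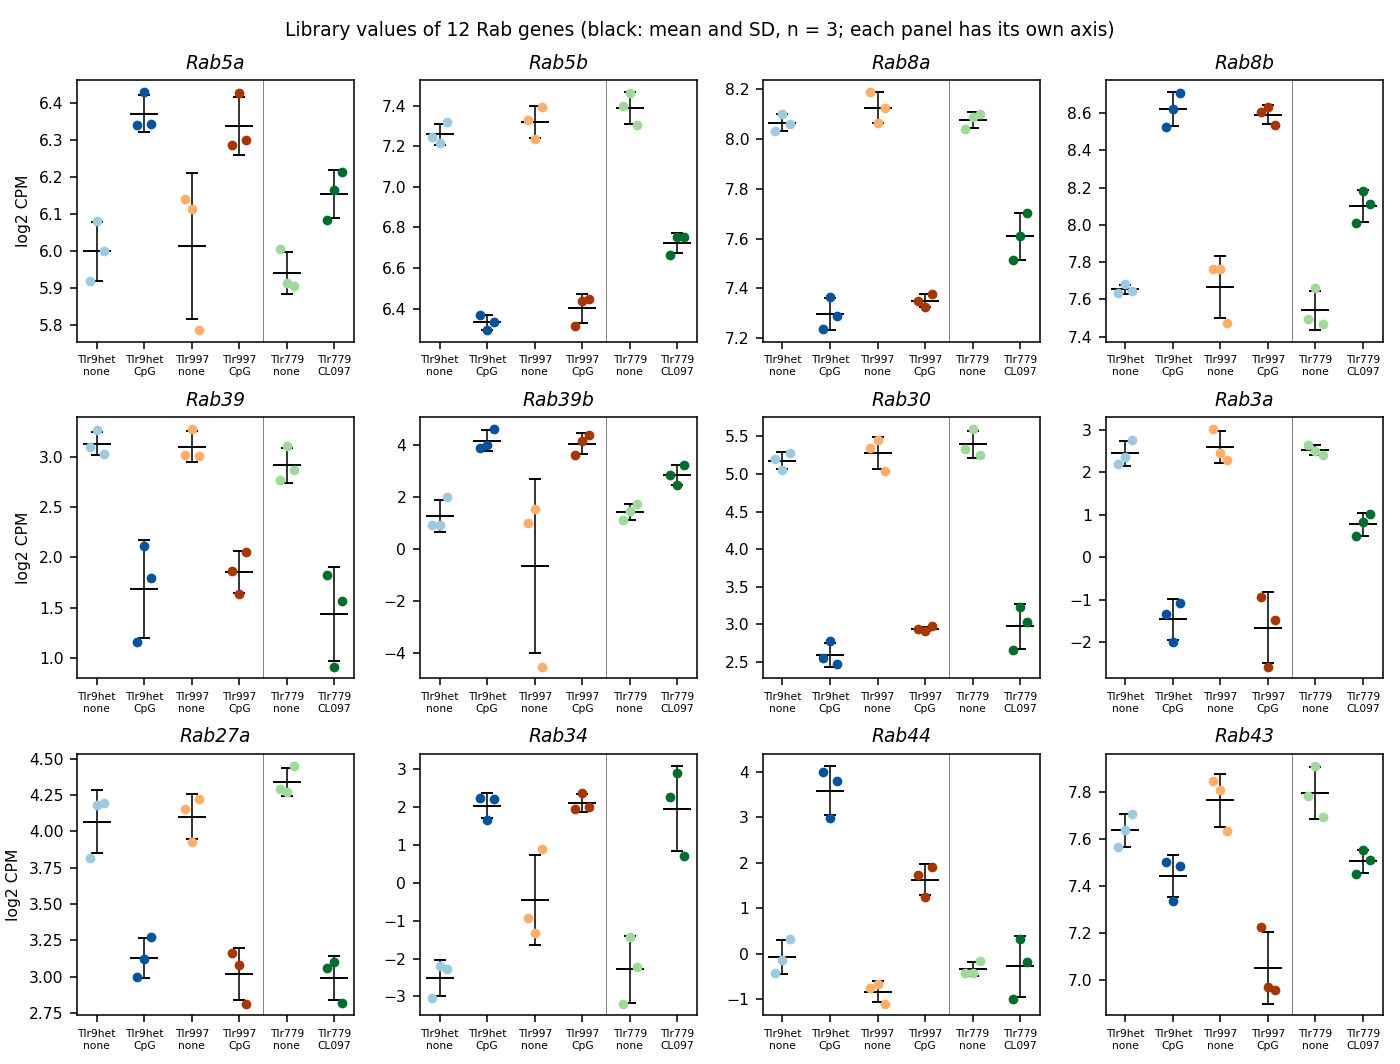
Log2 CPM of 12 Rab genes in each of the 18 libraries, with 1 panel per gene and its own vertical axis. Coloured points are libraries, black marks the mean and SD (n = 3), and the grey line separates the Tlr7-/- arm from the Tlr779 arm. Rab8a and Rab8b move against each other in each genotype, Rab44 is high with CpG and not with CL097, and the lowest Rab39b point, -4.52, is replicate 3 of unstimulated Tlr997.

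Of the 6 Rabs of secretory granules and lysosome-related organelles tested, 4 fell in Tlr9het and 5 in Tlr997, and 4 of 5 fell in Tlr779. Over all genes the shares called lower were 28.2%, 26% and 23.6%, and no test compared the class with them. Rab3a, which docks regulated secretory vesicles, was at 2.21, 2.37 and 2.76 log2 CPM in unstimulated Tlr9het and at -1.33, -1.99 and -1.07 with CpG. In Tlr997 it went from 3.02, 2.46 and 2.30 to -0.93, -2.57 and -1.47, and in Tlr779 from 2.65, 2.50 and 2.41 to 0.49, 0.82 and 1.02. No library with agonist reached the lowest unstimulated one, and those with CL097 all stood above those with CpG. In the Tlr7-/- arm every CpG value was below 0, so Rab3a passed the filter there through the unstimulated libraries. A difference from the CpG libraries was therefore built into its being tested. The log2 fold changes were -3.91 ± 0.44, -4.25 ± 0.44 and -1.74 ± 0.23 (SE, adjusted p = 2.71e-06, 1.31e-06 and 0.000311 by limma), and with 1 CPM added -2.24, -2.39 and -1.31. Rab3d, a relative found on granules of secretory cells, had log2 fold changes of -2.35, -1.66 and -1.82, and with 1 CPM added -1.50, -1.07 and -1.31.

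Rab27a, which tethers lytic and secretory granules, was at 3.82, 4.18 and 4.20 log2 CPM in unstimulated Tlr9het and at 2.99, 3.12 and 3.27 with CpG. Its groups did not overlap in any genotype, and its log2 fold changes were -0.94 ± 0.15, -1.09 ± 0.15 and -1.35 ± 0.13 (SE, adjusted p = 7.02e-05, 2e-05 and 6.86e-05 by limma). Rab37, a Rab of mast cell and other secretory granules, fell in both CpG responses, by 1.60 ± 0.45 and 1.63 ± 0.45 on the log2 scale (-0.95 and -0.94 with 1 CPM added), and was at -0.66 ± 0.51 in Tlr779, where it was not called. Rab32, which serves lysosome-related organelles, fell in Tlr997 (-0.85 ± 0.19) and Tlr779 (-0.82 ± 0.30) and was at -0.18 ± 0.19 in Tlr9het (log2 fold change, SE). The Tlr779 call was lost under 6 of 14 alternatives, with adjusted p up to 0.178 by limma. The difference between the genotypes, -0.67 ± 0.27, did not pass (adjusted p = 0.246 by limma). The mean macrophage marker sums were lower with agonist in every genotype. They were 208.2 and 126.4 CPM without and with CpG in Tlr997, and 218.7 and 138.8 CPM in Tlr9het. In Tlr779 they were 285.5 CPM without and 126.8 CPM with CL097. The library ranges overlapped in Tlr997 and Tlr779 but not in Tlr9het. The part of these markers in the Rab32 values was not tested.

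Rab44 is an atypical large Rab with extra domains, known from mast cell and osteoclast granules. In Tlr9het it was at -0.42, -0.14 and 0.32 log2 CPM without and at 4.0, 2.98 and 3.79 with CpG, a rise of 3.67 ± 0.34 (SE, adjusted p = 3.18e-07 by limma). In Tlr997 it was at -0.75, -0.66 and -1.10 without and at 1.72, 1.25 and 1.90 with CpG, a rise of 2.46 ± 0.34 (adjusted p = 1.84e-05). Every CpG library of Tlr9het stood above every CpG library of Tlr997. Between these 2 groups 30% of all genes tested and 9 of 41 Rabs did not overlap. In Tlr779 the values were -0.42, -0.43 and -0.17 without and -1.0, 0.33 and -0.18 with CL097, so the groups overlapped at a level under the filter. Rab44 passed the filter through the CpG libraries, where it is high, so a difference from the other libraries was built into its being tested. With 1 CPM added, the CpG values were 2.74 in Tlr9het and 1.39 in Tlr997.

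Among the remaining Rabs, Rab23, an inhibitor of Hedgehog signalling, rose in Tlr9het by 0.76 ± 0.19 (log2 fold change, SE, adjusted p = 0.00232 by limma), from 2.65, 2.62 and 2.69 to 3.19, 3.49 and 3.55 log2 CPM. In Tlr997 the value was 0.43 ± 0.19 and the groups overlapped, with replicate 3 at 3.21 without and replicate 1 at 3.11 with CpG. With CL097 it was -0.08 ± 0.17. Rab40c, which joins a ubiquitin ligase complex, was at 0.48, 0.47 and 0.12, and Rab28 at -0.17, 0.07 and -0.23. Neither was called.

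To find whether the TIR domain on TLR9 changed these genes, Tlr997 was compared with Tlr9het. These comparisons use the same 12 libraries as the CpG responses. Without agonist, 0 of 41 Rabs were called in either direction by limma, against 0.0174% of all genes called higher and 0% lower, and 4 Rabs had an unadjusted p under 0.05. With CpG, 0 were higher and 1 was lower, against 1.25% and 1.47% of all genes. This was Rab44, whose level with CpG was 1.62 ± 0.34 log2 CPM for Tlr997 and 3.59 ± 0.54 for Tlr9het (SD, n = 3 each), a difference of -1.96 ± 0.34 (SE, adjusted p = 0.00414). The adjusted p stayed between 0.000917 and 0.0336 under the 19 alternatives in which the gene was tested. Rab44 without agonist differed by -0.76 ± 0.34 (adjusted p = 0.443), and the difference of its CpG responses, -1.21 ± 0.47, did not pass (adjusted p = 0.234). With 1 CPM added that difference was -1.35 and passed (adjusted p = 0.0485). The B cell marker sums were 1615.8 to 1682.6 CPM in Tlr9het with CpG and 2548.8 to 3107.2 CPM in Tlr997 with CpG, and their part in the Rab44 difference was not tested.

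The difference of CpG responses was called for 0 Rabs higher and 1 lower in Tlr997, against 0.687% and 0.861% of all genes. Rab43, a Golgi Rab, was at 7.56, 7.64 and 7.70 log2 CPM without and 7.50, 7.34 and 7.49 with CpG in Tlr9het, and at 7.85, 7.81 and 7.63 without and 7.23, 6.97 and 6.96 with CpG in Tlr997. The groups were apart in both genotypes, with a wider gap in Tlr997. The response was -0.19 ± 0.08 in Tlr9het and -0.71 ± 0.08 in Tlr997, a difference of -0.52 ± 0.12 (SE, adjusted p = 0.0402 by limma). The value lay just past the fold threshold, and 11 of 20 alternatives lost the call, with values from -0.61 to -0.47 and adjusted p from 0.00578 to 0.161. The model Gm45140 overlaps 77.3% of the exon bases of Rab43 on the same strand, so its value is uncertain. Without replicate 3 of unstimulated Tlr997 the difference was -0.58 ± 0.11 (adjusted p = 0.0165).

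The response to CL097 in Tlr779 was then set against that to CpG in Tlr9het, in 1 model over the 18 libraries. Receptor, agonist, sex, arm and, by the methods text, age change together here and cannot be told apart. Of the 41 Rabs, 1 was higher and 2 were lower in this difference by limma, against 10.9% and 9.34% of 11676 genes. Rab3a fell less with CL097, by a difference of 2.17 ± 0.53 (SE, adjusted p = 0.00536). Rab23 differed by -0.84 ± 0.25 (adjusted p = 0.0165). Rab44 differed by -3.61 ± 0.52 (adjusted p = 8.72e-05), and since it passed the filter through the CpG libraries, this value is no independent support for a difference. At the fold threshold of 0.5 these 3 calls held under each refit in which the gene was tested. For Rab3a, 1 CPM added took the difference to 0.93. Rab3a passed the filter through the libraries without CpG, where it is high, so its value is no independent support either. Rab8b and Rab8a, at -0.41 ± 0.11 and 0.30 ± 0.08, had adjusted p of 0.00982 and 0.00667 but lay within the fold threshold.

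**Figure D4:**
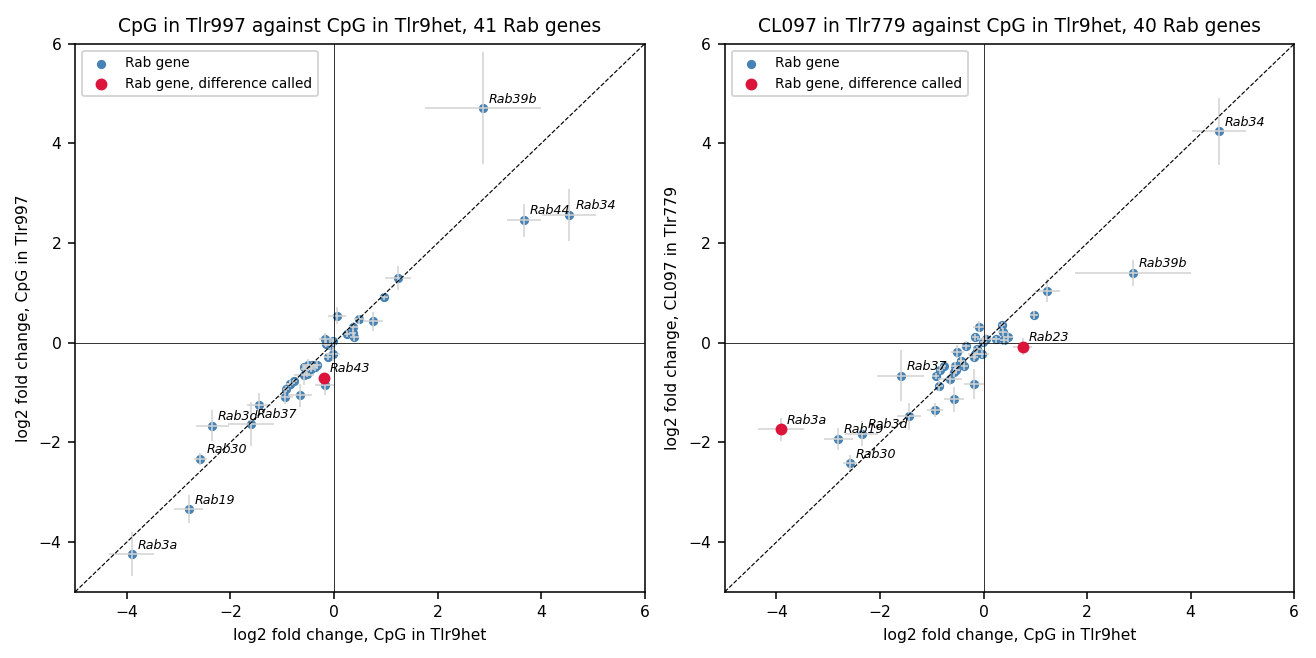
Log2 fold change of Rab genes with CpG in Tlr997 (left, 41 genes) and with CL097 in Tlr779 (right, 40 genes) against CpG in Tlr9het, with limma SE as grey bars and equality as a dashed line. Red points are genes whose difference between the responses was called (Rab43 on the left, Rab3a and Rab23 on the right); Rab44, also called, was not tested for CL097 alone and is absent on the right.

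The genes that load, unload and read Rabs were followed through 4 lists of 133 genes in all, of which 120 were tested in the Tlr7-/- arm and 116 in Tlr779. With CpG, 20 rose and 41 fell in Tlr9het, and 24 rose and 37 fell in Tlr997. With CL097, 20 rose and 33 fell. These were 16.7% and 34.2%, 20% and 30.8%, and 17.2% and 28.4% of the genes tested, against 29.7% and 28.2%, 29.6% and 26%, and 22.7% and 23.6% of all genes, and no test compared the lists with other genes. The medians over the genes tested were -0.27, -0.17 and -0.08 on the log2 scale. In the membrane cycle list, 1 of 7 genes rose and 3 fell in each response. Rabggtb, a subunit of the enzyme that attaches lipid to Rabs, rose by 0.95 ± 0.08, 1.13 ± 0.08 and 1.24 ± 0.13 (log2 fold change, SE). Gdi2, a GDP dissociation inhibitor, was at 11.22, 11.29 and 11.24 log2 CPM in unstimulated Tlr9het and at 8.68, 8.80 and 8.72 with CpG, and its log2 fold changes were -2.52 ± 0.05, -2.21 ± 0.05 and -1.54 ± 0.09 (SE). The prenylated Rab acceptor Rabac1 had values of -1.14, -1.29 and -0.59.

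Of 37 exchange factors tested in Tlr9het, 8 rose and 10 fell (21.6% and 27%), against 29.7% and 28.2% of all genes. Dennd3 (log2 fold changes of 2.58, 2.35 and 1.96), an exchange factor for Rab12, rose in each response. Rin3, a Rab5 exchange factor, fell in each (-2.15, -2.29 and -2.54), as did Dennd1c, which acts on Rab35 (-1.85, -1.91 and -1.13), and Madd, which acts on Rab3 and Rab27 (-1.46, -1.38 and -0.97). Of 35 GTPase-activating proteins, 4 rose and 14 fell in Tlr9het (11.4% and 40%), 6 and 11 in Tlr997 (17.1% and 31.4%) and 5 and 13 in Tlr779 (14.3% and 37.1%), beside the shares of all genes given above. Tbc1d10c, which acts on Rab35, had the lowest value of its list in each response (-4.03 ± 0.13, -4.04 ± 0.13 and -2.57 ± 0.08, SE), and Tbc1d16, which acts on Rab4, rose (1.78, 1.84 and 1.49).

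Among the effectors, 7 of 41 rose and 14 fell in Tlr9het (17.1% and 34.1%), against 29.7% and 28.2% of all genes. Sytl3, a synaptotagmin-like protein that binds Rab27, was at 0.28, 0.73 and 0.71 log2 CPM in unstimulated Tlr9het and at 4.95, 5.12 and 4.98 with CpG, with log2 fold changes of 4.45 ± 0.30, 5.19 ± 0.30 and 3.40 ± 0.20 (SE), the highest of the 4 lists in each response. Unc13d (Munc13-4), which also binds Rab27a and primes granules, fell instead (-2.40, -2.16 and -1.28). Optn, which binds Rab8, rose (1.75, 1.45 and 1.84) and Mical1, a cytoskeletal effector of Rab8 relatives, fell (-3.30, -3.60 and -2.36). Rab11fip1, an effector of Rab11, rose in each response (1.40, 1.05 and 0.95) and with CpG was lower in Tlr997, at 5.02 ± 0.12 against 5.52 ± 0.08 log2 CPM (SD, n = 3 libraries), a difference of -0.50 ± 0.10 (SE, adjusted p = 0.00967 by limma). Plekhm1, which joins Rab7 to lysosomal fusion factors, was also lower there (-0.57 ± 0.06, adjusted p = 0.000235 by limma), and Inpp5b, a phosphatase that binds several Rabs, was higher (0.63 ± 0.15, adjusted p = 0.031 by limma). Of the 120 tested genes of the lists, 1 was higher and 2 were lower in this comparison (0.833% and 1.67%), against 1.25% and 1.47% of all genes. The difference of CpG responses was not called for Rab11fip1 (-0.344, adjusted p = 0.245 by limma) or Inpp5b (0.629, adjusted p = 0.176). For Plekhm1 it was -0.465 (adjusted p = 0.0174), inside the fold threshold of 0.5.

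**Figure D5:**
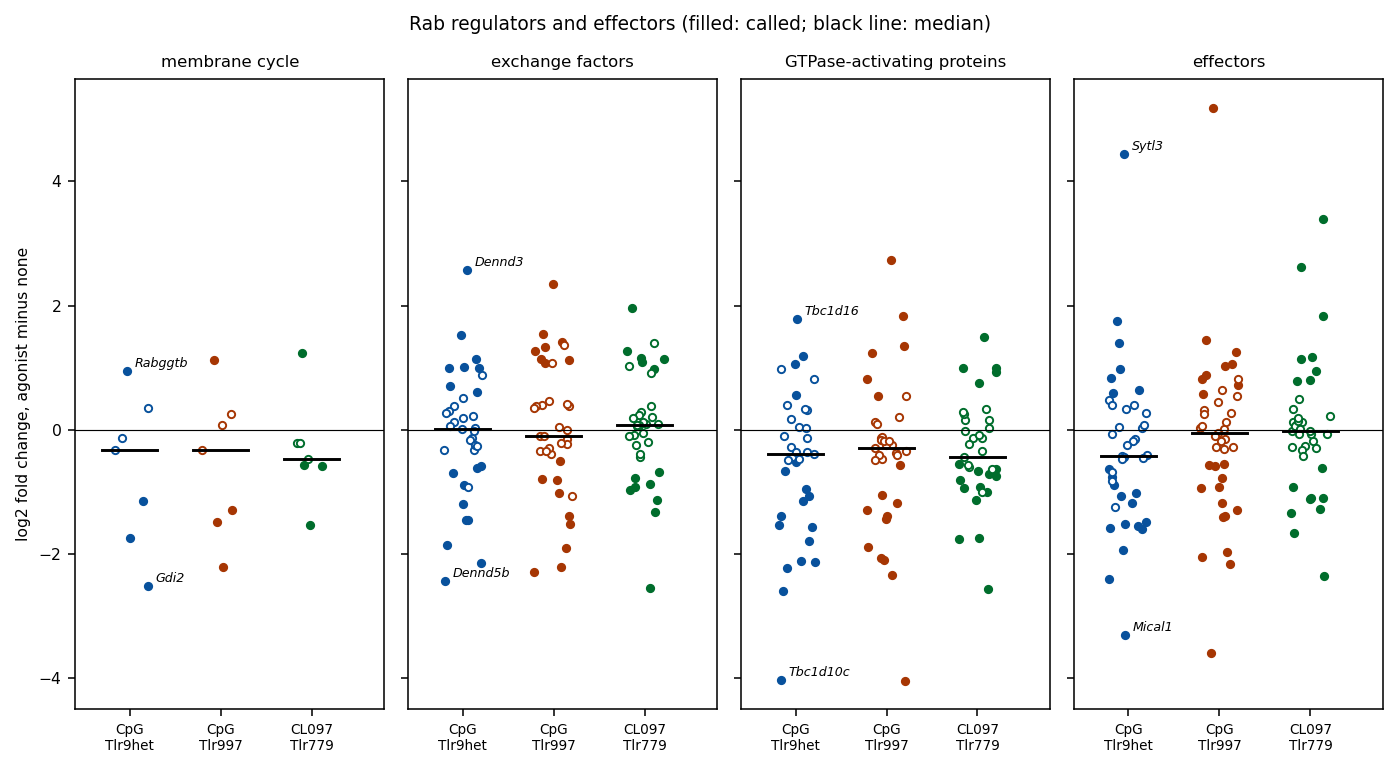
Log2 fold change (agonist minus none) of the tested genes in 4 lists of Rab regulators and effectors, by response. Points are genes (filled where called by limma), black lines are list medians, and the highest and lowest gene of each list with CpG in Tlr9het are named. Gdi2, Tbc1d10c and Mical1 mark the lower ends and Sytl3 the upper end.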

How the data were processed

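RNA sequencing libraries of splenic B cells were made with TruSeq mRNA chemistry and sequenced paired-end. Per the labels' processing notes and the study's methods, reads were trimmed with Trim Galore 0.6.5, checked with FastQC 0.11.7, aligned to mm10 with STAR 2.6.1a, counted with featureCounts (Subread 2.0.1), and quantile normalized and voom transformed in limma. The authors deposited 1 log2 CPM value per gene and library for 23420 genes. The deposited values carry no depth, and an offset for each replicate number appears to have been removed: of 6614 low genes in the 12 libraries of the Tlr7-/- arm, 6306 hold 1 value per number, and for 822 this value differs between numbers. Libraries of Tlr7 wild-type cells were not analysed here. The number of columns without a sample was 0.

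Genes over 0 log2 CPM in at least 3 of the fitted libraries were tested with limma 3.58.1 in R 4.3.3 (a mean per group, eBayes with trend). The 12 libraries of the Tlr7-/- arm shared 1 fit, the 6 Tlr779 libraries had their own, and the 2 responses were compared in a model over all 18. P-values were adjusted by Benjamini-Hochberg over all genes tested, and calls needed a log2 fold change beyond 0.5 in either direction with an adjusted p below 0.05. The fit was tested on simulated data. Tables were handled with Python 3.11.15 and pandas 2.3.3.

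The members, role classes and gene lists were chosen with earlier results of these data known. Called Rabs with the up to 8 largest and 8 smallest log2 fold changes of each comparison were named, with their relatives, the largest uncalled change of each role class and a fixed set of endosomal and granule Rabs. In the regulator lists this was up to 4 in each direction. Other Rabs and regulators were named after their values were seen, as were the genes whose promoters are printed. Exon lengths and overlaps came from GENCODE vM21 and promoters from RefSeq, both on GRCm38. Rab29, listed under the older symbol Rab7l1, did not match the naming rule, and Rab7b was not analysed here.

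Deviations from group means correlated between libraries of the same number at 0.513, 0.287 and 0.509 in Tlr9het and at 0.252, 0.485 and 0.334 in Tlr779, which met the rule for pairing, and at 0.373, 0.083 and 0.025 in Tlr997, which did not. The numbers come from the sample titles. Alternatives covered the replicate block, the libraries fitted, the filter, the variance trend, median centring, 1 CPM added, array quality weights, the fold threshold and leaving out each library.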

Additional observations from a re-analysis of the deposited data

Results flagged for a closer look

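For 4 Rab genes the response itself differed between groups by limma. The CpG response of Rab43 was lower in Tlr997 than in Tlr9het by -0.518 on the log2 scale (SE 0.12, adjusted p = 0.0402), with 3 libraries per group. This difference is the least stable of the 4, since 11 of 20 alternatives lost the call.

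The response to CL097 in Tlr779 differed from that to CpG in Tlr9het for 3 Rabs. The difference was 2.169 for Rab3a (adjusted p = 0.00536), -3.609 for Rab44 (adjusted p = 8.72e-05) and -0.838 for Rab23 (adjusted p = 0.0165), all on the log2 scale by limma. Rab3a fell in both responses and less with CL097, Rab44 rose with CpG and stayed at the level of the filter with CL097, and Rab23 rose with CpG and was at -0.08 with CL097. Rab44 passed the filter through the CpG libraries and Rab3a through the libraries without CpG, so these values are no independent support. Receptor, agonist, sex, arm and, by the methods text, age change together in this contrast and cannot be told apart.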

How the results depend on the processing

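No Rab call reversed under any alternative. With any fold change allowed, the count of Rabs called higher became 11 in Tlr9het, 10 in Tlr997 and 7 in Tlr779. At a fold threshold of 1 on the log2 scale, the count called lower became 6, 8 and 7. Tlr997 minus Tlr9het with CpG gave 2 lower with any fold change and 0 with a mean over 2 log2 CPM, which removes Rab44. The difference of CpG responses gave 0 lower with a fold change over 1, without the filter and without the variance trend, and 2 with 1 CPM added. CL097 minus CpG gave 5 higher with any fold change, 0 with a mean over 2 log2 CPM, and 2 with the compared libraries alone, without the variance trend and with array quality weights. It gave 1 lower with a fold change over 1, 5 with any, and 1 with a mean over 2 log2 CPM.

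With 1 library left out, Tlr9het gave 5 to 7 higher and 14 to 17 lower, Tlr997 6 to 7 and 17 to 21, and Tlr779 3 to 4 and 13 to 15. Tlr997 minus Tlr9het gave 0 without agonist and 0 higher and 1 lower with CpG, the difference of CpG responses 0 higher and 0 to 1 lower, and CL097 minus CpG 1 to 2 higher and 2 to 3 lower. The Rab43 call was lost without any single library of the 12 except replicate 3 of either unstimulated group and replicate 1 of Tlr997 with CpG, at -0.57 to -0.47. The Rab32 call in Tlr779 was lost without replicate 1 or 2 with CL097 or replicate 1 or 3 without (-0.90 to -0.58), and that of Rab21 without replicate 1 with CL097 or replicate 2 without (-0.48 and -0.50). The Rab39b call in Tlr9het was lost without any of its libraries but unstimulated replicate 3. Rab24 was lost there without unstimulated replicate 1 or CpG replicate 3 (-0.59 and -0.58). Also in Tlr9het, Rab2b (-0.46 and -0.43) and Rab4b (-0.47 and -0.48) lost the call without unstimulated replicate 3 or CpG replicate 1, Rab35 (-0.48) without unstimulated replicate 3 and Rab31 (-0.52) without unstimulated replicate 2. In Tlr997, Rab31 (-0.50) lost it without unstimulated replicate 1, Rab4b (-0.49) without CpG replicate 2 and Rab6a (-0.48) without CpG replicate 3. The causes were not tested.

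With the replicate block the counts were as reported, at 6 higher and 17 lower in Tlr9het, 6 and 18 in Tlr997, 4 and 14 in Tlr779, 0 and 1 for both differences with CpG, 0 and 0 without agonist, and 1 and 2 for CL097 minus CpG, and the replicate block ended 0 member calls. With 3 libraries per group and no counts, values near the low end of the scale carry unknown counting error, and their fold changes depend on the offset.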

Other observations

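Of the other marker lists, dendritic cell genes summed to 27.0 to 40.9 CPM without and 67.9 to 97.4 CPM with agonist, without overlap. Of 4 of these 5 genes that were tested, Zbtb46 rose in each response (log2 fold changes of 1.80 in Tlr9het, 1.86 in Tlr997 and 2.22 in Tlr779, by limma) and Flt3 rose in Tlr779 (0.57), while Siglech was at -0.49, -0.81 and -0.73 and was not called. The medians over the 4 were -0.08, -0.08 and 0.40. Plasma cell genes summed to 427.1 to 717.7 CPM without and 267.6 to 433.8 CPM with CpG in Tlr9het, which overlapped. They summed to 496.7 to 611.6 and 286.5 to 369.1 CPM in Tlr997 and to 661.1 to 1035.8 and 409.3 to 646.5 CPM in Tlr779, without overlap. Of these 4 genes, Sdc1, Igj and Xbp1 were called lower in each response and Prdm1 in none. Over the 3 genotypes together, neutrophil genes summed to 27.1 to 120 CPM without and 16.6 to 80.8 CPM with agonist. NK cell genes summed to 4.3 to 7.9 and 2.4 to 12, platelet genes to 1.9 to 7 and 2.7 to 6.4, and erythroid genes to 13.4 to 478.1 and 12.3 to 484.4. Of 4 NK cell genes tested with CpG, Ncr1 and Gzma were called higher in both genotypes and 2 in neither. Their part in the Rab values was not tested. The summed level of all 57 Rabs was 3092 ± 43.7 CPM without and 2813 ± 80.8 CPM with CpG in Tlr9het (SD, n = 3 each).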
